A study of Homo sapiens with 11 samples.

Results

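The genes described here are the epidermal growth factor (EGF) receptor family and its ligands in RWPE1 cells, an immortalised, non-tumorigenic line of human prostate epithelium. They were chosen by symbol as 3 receptors (EGFR, ERBB2 and ERBB3), 5 ligands (AREG, EREG, HBEGF, TGFA and BTC) and the feedback inhibitor ERRFI1. All 9 were found among the 60676 genes of the count table, and all 9 passed the filter on low counts that left 19981 genes for testing.

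EGFR, ERBB2 and ERBB3 are receptor tyrosine kinases of the plasma membrane that signal as dimers. A ligand such as amphiregulin (AREG), epiregulin (EREG), heparin-binding EGF-like growth factor (HBEGF), transforming growth factor alpha (TGFA) or betacellulin (BTC) is made as a membrane-anchored precursor, cut free by a protease, and then binds EGFR on the same or a neighbouring cell. ERBB2 has no known ligand and acts as a dimerisation partner, ERBB3 has little kinase activity of its own and binds neuregulins, and ERRFI1 (MIG6) is a cytoplasmic protein that binds the EGFR kinase domain and holds it inactive. In epithelia, the prostate included, this family governs growth and survival through the RAS-ERK and PI3K-AKT pathways.

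RNA sequencing libraries were analysed from unmodified RWPE1 cells in normoxia (called 0 h, 3 libraries) and from cells moved to 1% oxygen for 6 h (3 libraries), 12 h (3 libraries) or 24 h (2 libraries), while 24 h replicate 3 was not analysed here. Every group was grown in keratinocyte serum-free medium with 5 ng/ml EGF and 0.05 mg/ml bovine pituitary extract, so that an EGFR ligand was supplied to all cells, the normoxic controls included. Only the hypoxic cells also received 10 mM HEPES buffer in their medium, and oxygen and buffer therefore cannot be told apart in any comparison with 0 h. No normoxic libraries were matched to 6, 12 or 24 h. Time at 1% oxygen and time in culture therefore cannot be told apart either. The line is a single immortalised line, and the labels do not say whether replicates came from separate cultures, so that p-values measure the spread between these libraries, which may be technical.

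Libraries held 27496009 to 49488345 counts. Their TMM factors, which scale library sizes, lay between 1.29 and 1.32 in normoxia and between 0.851 and 1.07 in the other libraries apart from 24 h replicate 2, which had 0.539 and stood apart from 24 h replicate 1 in several of the genes below. Results at 24 h are therefore also given with either library left out. All 5 genes of a short hypoxia list (CA9, EGLN3, ANKRD37, SLC2A3 and VEGFA) were higher at each time than at 0 h. All 4 basal epithelial markers (KRT5, KRT14, KRT17 and TP63) were expressed, with a summed level of 11435 to 14758 counts per 1000000 scaled counts (CPM) in normoxia and 28581 to 55777 CPM at 24 h. TP63, the transcription factor of basal cells, went against this sum and was lower at all 3 times (log2 fold changes -1.72, -0.95 and -1.50). Of 3 luminal prostate markers (KRT8, KRT18 and KLK3), KLK3 was at 0 counts in every library, and the sum of the 3 was 227 to 257 CPM in normoxia and 1064 to 1796 CPM at 24 h. The 3 fibroblast markers summed to 27.7 to 60.6 CPM, with DCN at no more than 1 count, and the 2 endothelial and 2 leukocyte markers each summed to no more than 0.506 CPM. The part of these markers in the results below was not tested.

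The receptors fell together at 6 h, while the ligands did not share 1 direction. All 3 receptors fell at 6 h, EREG and TGFA rose at 6 h and 12 h, AREG fell at both, and ERRFI1 rose at all 3 times. A gene is called here when edgeR's quasi-likelihood test gives a Benjamini-Hochberg adjusted p under 0.05 over all tested genes. At 6 h 7 of the 9 genes were called, 3 higher and 4 lower, against 52.8% of all tested genes called at that time (25.1% higher and 27.7% lower). At 12 h 7 of 9 were called, again 3 higher and 4 lower, against 51.2% of all genes (24.2% higher and 27.1% lower). At 24 h 5 of 9 were called, 3 higher and 2 lower, against 61.2% of all genes (29.9% higher and 31.3% lower). With library size alone in place of TMM, 5 were called at 24 h, 1 higher and 4 lower. Called in 1 direction at all 3 times were EREG and ERRFI1 (higher) and ERBB2 (lower), 3 of 9 genes against 32.7% of all tested genes (14.8% higher and 17.9% lower). The ranges of the libraries did not overlap those of normoxia for 8 of 9 genes at 6 h, 7 of 9 at 12 h and 6 of 9 at 24 h, against 69.6%, 72.3% and 73% of all genes. These shares are close to those of the transcriptome as a whole at 24 h and over all 3 times, and with 9 genes the shares at 6 and 12 h are a description only. The 3 comparisons with 0 h use the same normoxic libraries. In bulk RNA, fewer cells of a kind and less RNA per cell cannot be told apart.

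**Figure D1:**
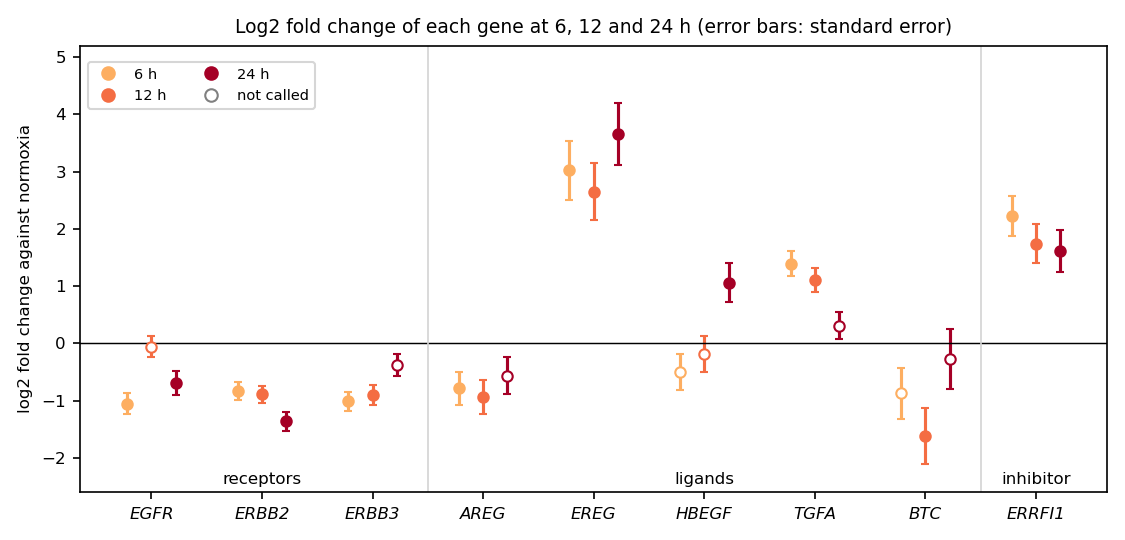
Log2 fold change of each gene against normoxia at 6, 12 and 24 h (vertical axis), with receptors, ligands and the inhibitor side by side. Bars are standard errors from edgeR, filled points are called and open points are not. EREG and ERRFI1 lie above 0 at all 3 times, and ERBB2 lies below 0 at all 3.

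EGFR, the receptor for all 5 ligands, lies at chr7:55019017-55211628 on the plus strand (GRCh38). It was measured at 482, 515 and 496 CPM in normoxia, at 227, 273 and 221 CPM at 6 h, at 424, 521 and 495 CPM at 12 h, and at 387 and 229 CPM at 24 h. Every 6 h library was below every normoxic one, the 12 h libraries overlapped the normoxic range, and both 24 h libraries were again below it. The overlap at 12 h depends on the scaling. With library size alone the 12 h libraries had 386 to 517 CPM, against 635 to 682 CPM in normoxia. The fall at 6 h was 2.07-fold (log2 fold change -1.05 ± 0.19, SE, adjusted p = 0.000586). At 12 h the difference was not called (log2 fold change -0.053 ± 0.19, adjusted p = 0.83), and between 6 and 12 h EGFR rose 2-fold (log2 fold change 1.00 ± 0.19, adjusted p = 0.0162). It was the only one of the 9 genes called between 6 and 12 h, where 4.95% of all genes were called (1.88% higher and 3.07% lower). Between these times the library ranges of 2 of the 9 genes did not overlap, against 31.6% of all genes. This call was lost without 6 h replicate 1 or 2, without 12 h replicate 2 or 3, and with library size alone, with adjusted p up to 0.111, while the log2 fold change was between 0.85 and 1.10 over all alternatives. At 24 h EGFR was 1.62-fold below normoxia (log2 fold change -0.69 ± 0.21, adjusted p = 0.0138), by 1.18 on the log2 scale in replicate 2 alone and by 0.38 in replicate 1 alone, where the call was lost (adjusted p = 0.0678), as it was in a fit of the 2 groups alone (adjusted p = 0.0779).

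ERBB2, the partner receptor without a ligand (chr17:39687914-39730426, plus strand), had 95.1, 98.8 and 103 CPM in normoxia, 51.5, 51.4 and 63.7 CPM at 6 h, 50, 55.6 and 54.7 CPM at 12 h, and 44.4 and 32.7 CPM at 24 h. No hypoxic library reached the normoxic range, and the 24 h libraries were the lowest. The fall was 1.78-fold at 6 h (log2 fold change -0.83 ± 0.15, adjusted p = 0.000444), 1.85-fold at 12 h (-0.89 ± 0.15, adjusted p = 0.000351) and 2.57-fold at 24 h (-1.36 ± 0.17, adjusted p = 2.8e-05). These 3 calls were kept in every alternative run, and at 24 h the log2 fold change was -1.65 without replicate 1 and -1.18 without replicate 2. Of its exonic bases 6.93% overlap genes of the opposite strand (MIEN1 and PGAP3). The library kit marks strand, but the strand setting of the counting is not given in the sources used here.

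ERBB3, the neuregulin-binding receptor (chr12:56076799-56103505, plus strand), had 49.4, 48.7 and 48.5 CPM in normoxia, 25.1, 24.4 and 23.1 CPM at 6 h, 25.7, 27.2 and 25.8 CPM at 12 h, and 28.0 and 47.8 CPM at 24 h. The 6 and 12 h libraries lay near 25 CPM, whereas 24 h replicate 2 lay next to the normoxic libraries. This place depends on the scaling, since with library size alone 24 h replicate 2 had 25.8 CPM, next to replicate 1 at 23.8 CPM, against 62.5 to 65 CPM in normoxia. ERBB3 fell 2.02-fold at 6 h (log2 fold change -1.01 ± 0.17, adjusted p = 0.000313) and 1.86-fold at 12 h (-0.90 ± 0.17, adjusted p = 0.000859). At 24 h it was not called (-0.37 ± 0.19, adjusted p = 0.107). Without 24 h replicate 2 it was called lower (-0.82, adjusted p = 0.000171), and without replicate 1 the log2 fold change was -0.087. With library size alone it was called lower at 24 h as well (-1.37, adjusted p = 2.08e-05).

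**Figure D2:**
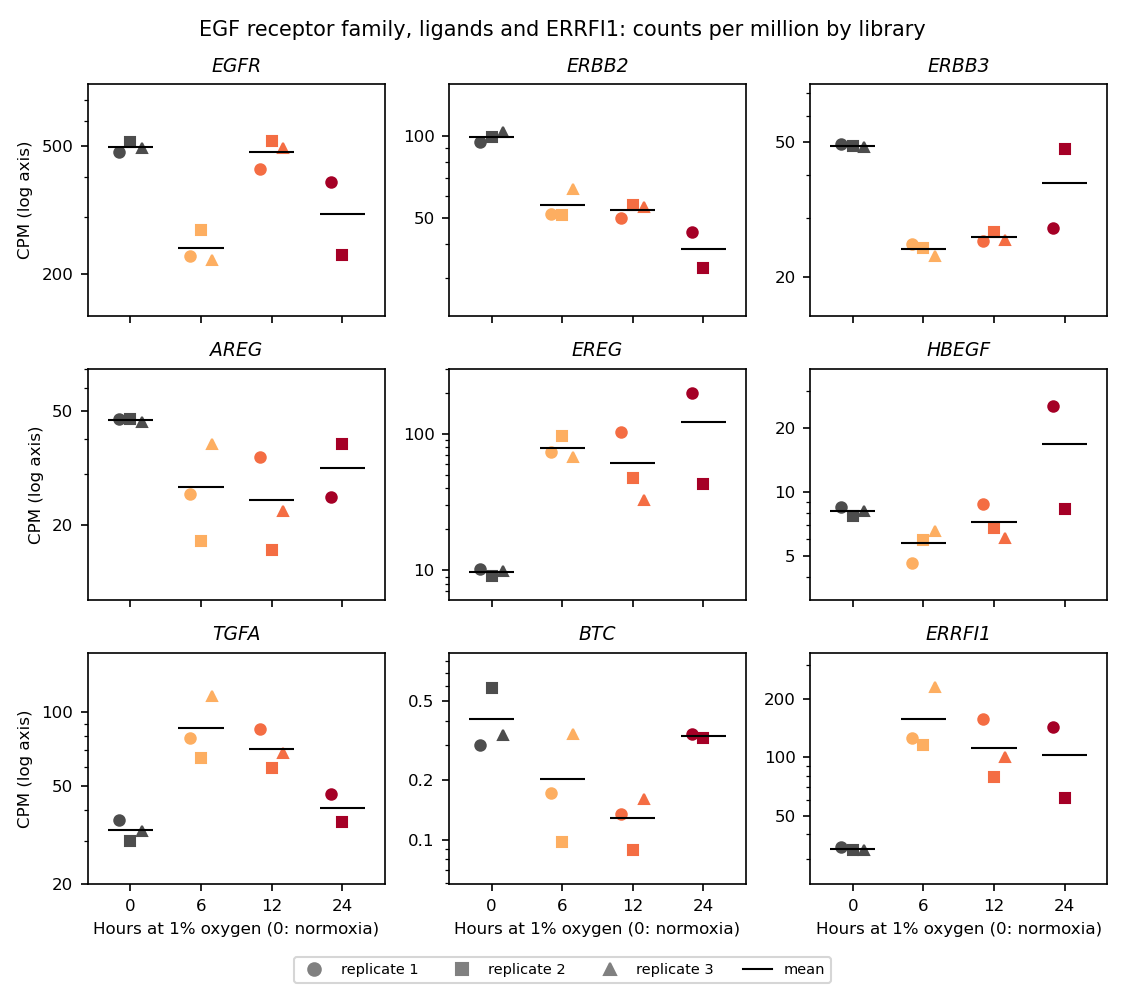
Level of each gene in CPM (vertical, log axis) by hours at 1% oxygen, 1 panel per gene. Each point is a library, with the symbol giving the replicate number and the black bar the mean of the group. The 3 normoxic libraries lie close together in all panels but that of BTC, and the 2 libraries at 24 h lie apart for EREG (201 and 43.1 CPM) and HBEGF (25.5 and 8.34 CPM).

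The ligand AREG lies at chr4:74445136-74455005 on the plus strand. Its level was 46.9, 46.8 and 45.9 CPM in normoxia, 25.5, 17.5 and 38.4 CPM at 6 h, 34.5, 16.3 and 22.3 CPM at 12 h, and 24.9 and 38.2 CPM at 24 h. All 8 hypoxic libraries lay below all 3 normoxic ones, with a wide spread among themselves. AREG fell 1.71-fold at 6 h (log2 fold change -0.78 ± 0.29, adjusted p = 0.0413) and 1.91-fold at 12 h (-0.94 ± 0.30, adjusted p = 0.0188), and was not called at 24 h (-0.56 ± 0.33, adjusted p = 0.162). The 24 h value was -0.34 without replicate 1 and -0.92 without replicate 2, neither called, and with library size alone it was -1.54 and called (adjusted p = 0.00146). The 6 h call was lost in 6 of the 11 fits that leave out 1 library (any of the 3 normoxic libraries, 6 h replicate 1 or 2, or 12 h replicate 3), with adjusted p up to 0.161. The 12 h call was lost without 12 h replicate 2 (adjusted p = 0.0697) or replicate 3 (adjusted p = 0.0637).

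EREG, a ligand that binds EGFR and ERBB4, lies at chr4:74365145-74388749 on the plus strand. It had 10.2, 9.06 and 9.91 CPM in normoxia, 73.3, 96.0 and 67.7 CPM at 6 h, 104, 47.3 and 32.8 CPM at 12 h, and 201 and 43.1 CPM at 24 h. The lowest hypoxic library was above the highest normoxic one by a wide margin, while libraries of the same hypoxic time differed from each other more than for any receptor. EREG rose 8.11-fold at 6 h (log2 fold change 3.02 ± 0.51, adjusted p = 0.00034), 6.29-fold at 12 h (2.65 ± 0.50, adjusted p = 0.00092) and 12.6-fold at 24 h (3.65 ± 0.54, adjusted p = 0.000105). Left out in turn, 24 h replicate 1 and replicate 2 gave log2 fold changes of 2.09 and 4.35, both called. The 3 calls were kept in every alternative run.

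TGFA, the ligand first purified from transformed cells (chr2:70447284-70554193, minus strand), had 36.4, 30.0 and 33.1 CPM in normoxia, 78.6, 65.2 and 116 CPM at 6 h, 85.9, 59.3 and 68.1 CPM at 12 h, and 46.4 and 35.7 CPM at 24 h. All 6 and 12 h libraries lay above normoxia, and 24 h replicate 2 lay inside the normoxic range. TGFA rose 2.61-fold at 6 h (log2 fold change 1.39 ± 0.22, adjusted p = 0.000193) and 2.14-fold at 12 h (1.10 ± 0.21, adjusted p = 0.00114). At 24 h it was not called (0.31 ± 0.24, adjusted p = 0.275), and it was 1.73-fold lower than at 12 h (log2 fold change -0.79 ± 0.24, adjusted p = 0.0289).

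HBEGF, a ligand that also binds heparan sulfate (chr5:140332843-140346603, minus strand), had 8.53, 7.76 and 8.13 CPM in normoxia, 4.65, 5.97 and 6.6 CPM at 6 h, 8.79, 6.76 and 6.08 CPM at 12 h, and 25.5 and 8.34 CPM at 24 h. It was not called at 6 h (log2 fold change -0.50 ± 0.31, adjusted p = 0.198) or 12 h (-0.18 ± 0.31, adjusted p = 0.656). All 3 libraries of 6 h lay below all normoxic ones, however. A fit of these 2 groups alone called HBEGF lower at 6 h (-0.51, adjusted p = 0.0139). At 24 h it was called 2.09-fold higher (1.06 ± 0.34, adjusted p = 0.0169), although 24 h replicate 2 lay inside the normoxic range. Without 24 h replicate 1 the log2 fold change was -0.021 (adjusted p = 0.947), so the call rests on that library, and it was also lost without 0 h replicate 2 (adjusted p = 0.0505), in a fit of the 2 groups alone (adjusted p = 0.0769) and with library size alone (0.29, adjusted p = 0.571).

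BTC (chr4:74744759-74794523, minus strand) was near the limit of detection, with 13, 22 and 14 counts in normoxia, 5, 3 and 18 counts at 6 h, 4, 3 and 7 counts at 12 h, and 8 and 6 counts at 24 h. Its lowest library was 12 h replicate 2 at 0.0889 CPM, and its highest 0 h replicate 2 at 0.586 CPM. It was called at 12 h and at neither other time (log2 fold change -1.61 ± 0.49, adjusted p = 0.0149), and the call was lost without 0 h replicate 2 (adjusted p = 0.0683) or 12 h replicate 2 (adjusted p = 0.0541). At 6 h the log2 fold change was -0.87 ± 0.44 (adjusted p = 0.114) and at 24 h -0.27 ± 0.53 (adjusted p = 0.674).

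EREG, AREG and BTC are neighbours on chromosome 4, with a further ligand gene, EPGN (epigen), upstream of EREG at chr4:74308470-74316789. EREG begins 48355 bases after the end of EPGN, AREG 56386 bases after the end of EREG, and BTC lies another 289753 bases on. Within this run EREG alone was called higher. Its nearest neighbours among the tested genes fell, EPGN at all 3 times (log2 fold changes -1.24, -1.34 and -1.49) and AREG at 6 and 12 h. Within a library, where no scaling between libraries enters, EREG had 0.194 to 0.218 counts per count of AREG in normoxia. In hypoxia this ratio was 1.76 to 5.49 at 6 h, 1.47 to 3.01 at 12 h, and 8.06 and 1.13 at 24 h, so that every hypoxic library was above every normoxic one.

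The sequences before the start sites of these 2 neighbours are shown because their transcripts went in opposite directions. They are the 250 bases upstream of the RefSeq start on GRCh38, 5′ to 3′ on the gene's strand, at chr4:74364895-74365144 for EREG and chr4:74444886-74445135 for AREG. Capitals mark the motifs searched for on both strands. The hypoxia response element core was searched for in its 2 forms, ACGTG and the form GCGTG, the latter printed as CACGC where it lies on the other strand. The cAMP response element was searched for as TGACGTCA. The AP-1 site was searched for as TGANTCA. No 2 of the matches overlapped.
EREG: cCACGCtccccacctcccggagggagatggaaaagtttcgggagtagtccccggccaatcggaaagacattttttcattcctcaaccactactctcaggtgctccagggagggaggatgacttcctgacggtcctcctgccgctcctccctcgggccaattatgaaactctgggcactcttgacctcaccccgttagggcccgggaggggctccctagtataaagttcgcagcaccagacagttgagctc
AREG: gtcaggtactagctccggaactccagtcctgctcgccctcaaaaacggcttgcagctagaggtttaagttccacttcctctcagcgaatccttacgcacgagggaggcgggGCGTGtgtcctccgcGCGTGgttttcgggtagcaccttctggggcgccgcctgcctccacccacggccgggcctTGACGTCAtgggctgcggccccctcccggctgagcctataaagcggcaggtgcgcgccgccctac
AREG held GCGTG at 139 and 124 bases before the start and TGACGTCA at 65 bases before it. EREG held GCGTG on the opposite strand 249 bases before the start, and ACGTG at base 39 after it, within these 20 bases at chr4:74365175-74365194.
EREG after the start: cacagccaACGTGgggtccc
In all RefSeq windows of 300 bases (250 before and 50 after the start, 35116 windows), ACGTG was found in 21.4%, GCGTG in 36.5%, either in 48.4%, TGACGTCA in 1.85% and TGANTCA in 7.71%. Windows were matched for 8 of the 9 genes (not ERBB3), 10 windows in all, and 5 of the 10 held a hypoxia response element core, 1 each for AREG, EREG, HBEGF, BTC and the second start of TGFA. This share is near that of all windows, and core matches were found both for genes called higher and for genes called lower. TGANTCA was found for ERBB2 and for the second start of EGFR. ERRFI1 and the first start of TGFA, both called higher at 6 h, held none of the motifs in the 300 bases searched, of which the 250 before the start are shown for comparison (chr1:8026310-8026559 and chr2:70553827-70554076, minus strand).
ERRFI1: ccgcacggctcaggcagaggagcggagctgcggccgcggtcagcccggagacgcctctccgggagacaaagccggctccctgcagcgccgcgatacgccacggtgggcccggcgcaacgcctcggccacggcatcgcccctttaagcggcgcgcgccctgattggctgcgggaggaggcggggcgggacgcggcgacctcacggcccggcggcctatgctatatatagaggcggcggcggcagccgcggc
TGFA: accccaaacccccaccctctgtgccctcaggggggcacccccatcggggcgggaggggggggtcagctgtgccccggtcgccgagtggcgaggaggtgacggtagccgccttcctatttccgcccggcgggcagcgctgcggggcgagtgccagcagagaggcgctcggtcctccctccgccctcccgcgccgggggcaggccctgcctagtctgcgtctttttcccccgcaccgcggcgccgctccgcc
A match is a description of the letters only, and no binding was measured here.

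Because the 5 ligands moved differently, the makeup of the ligand transcripts differed between normoxia and hypoxia. In normoxia AREG made up 71.5% ± 1.42 (SD, n = 3) of the summed ligand CPM per kilobase of exonic length, TGFA 17.0% ± 1.25, HBEGF 6.86% ± 0.183, EREG 4.29% ± 0.191 and BTC 0.389% ± 0.156. At 6 h AREG was at 32.3% ± 6.78, TGFA at 34.8% ± 3.85 and EREG at 28.9% ± 9.99 (n = 3), and at 12 h they were at 34.7% ± 4.07, 35.2% ± 5.25 and 24.1% ± 7.19. AREG thus held over 70% of the sum in every normoxic library and no more than 38.5% in any library of 6 or 12 h. The 2 libraries at 24 h differed, with AREG at 22.2% and EREG at 51.4% in replicate 1 and AREG at 56.8% and EREG at 18.4% in replicate 2. The sum itself was 39.0 to 40.7 CPM per kilobase in normoxia, 42.7 to 61.2 at 6 h, 32.5 to 59.6 at 12 h, and 68.5 and 41.0 at 24 h. Unlike the shares, this sum rests on the TMM factors, which were 1.29 to 1.32 in normoxia and 0.539 in 24 h replicate 2. It was not taken with library size alone. With the length of the canonical transcript, an alternative chosen after seeing the data, AREG was at 73.3% in normoxia and 34.2% at 6 h. Without division by length, AREG was at 47.5% in normoxia and 13.4% at 6 h, and EREG was at 9.93% and 40.6%.

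EGFR was the most abundant receptor in every library. It made up 69.4% ± 0.755 of the summed receptor CPM per kilobase in normoxia, 66.8% ± 3.90 at 6 h and 80.2% ± 0.945 at 12 h (SD, n = 3), and 78.4% and 66.4% in the 24 h libraries. ERBB2 made up 21.3% ± 0.681 in normoxia, 24.0% ± 3.74 at 6 h and 13.8% ± 0.551 at 12 h, and 13.9% and 14.7% in the 24 h libraries. ERBB3 was the least abundant in every library except 24 h replicate 2, where it made up 18.9%, above ERBB2. The sum of the 3 receptors was 43.7 to 46.1 CPM per kilobase in normoxia and lower in every hypoxic library, at 21.4 to 24.2 at 6 h, 33.6 to 40.4 at 12 h, and 31.0 and 21.6 at 24 h.

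**Figure D3:**
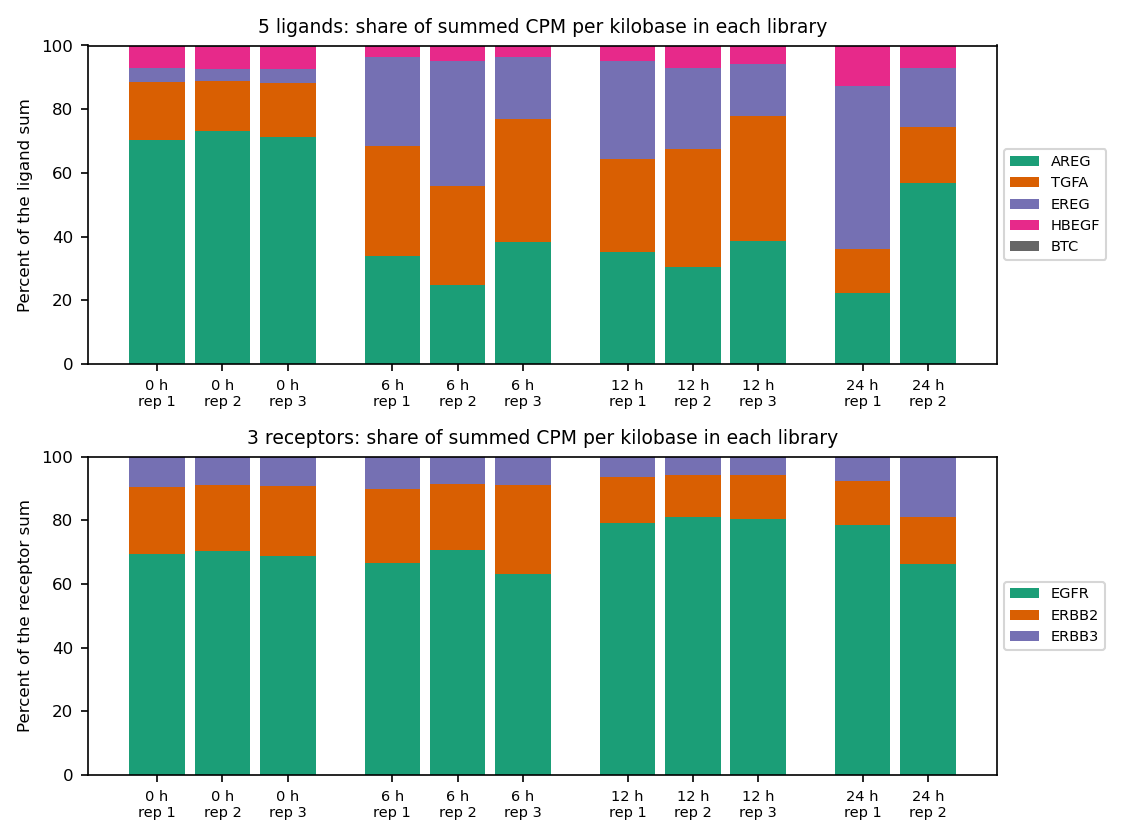
Share of each ligand in the summed CPM per kilobase of the 5 ligands (top) and of each receptor in that of the 3 receptors (bottom), in percent, 1 bar per library grouped by time. AREG takes 70.2% to 73.0% of the ligand sum in the normoxic bars and 22.2% to 56.8% in the hypoxic ones, and EGFR takes the most of the receptor sum in all 11 bars.

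ERRFI1, the inhibitor that binds the EGFR kinase domain, lies at chr1:8004404-8026309 on the minus strand. Its level was 34.3, 33.1 and 33.4 CPM in normoxia, 126, 116 and 230 CPM at 6 h, 157, 79.2 and 99.9 CPM at 12 h, and 143 and 61.7 CPM at 24 h. All 8 hypoxic libraries lay above all normoxic ones. ERRFI1 rose 4.68-fold at 6 h (log2 fold change 2.23 ± 0.35, adjusted p = 0.000192), 3.34-fold at 12 h (1.74 ± 0.34, adjusted p = 0.00118) and 3.04-fold at 24 h (1.61 ± 0.37, adjusted p = 0.00225). Without 24 h replicate 1 the 24 h log2 fold change was 0.82 and the call was lost (adjusted p = 0.0625). Against the counts of its target in the same library, ERRFI1 had 0.0642 to 0.0712 counts per count of EGFR in normoxia, 0.424 to 1.04 at 6 h, 0.152 to 0.371 at 12 h, and 0.368 and 0.270 at 24 h.

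Per kilobase of exonic length, the order of the levels in normoxia was EGFR (31.2 CPM per kilobase), AREG (28.3), ERBB2 (9.60), ERRFI1 (8.04), TGFA (6.75), ERBB3 (4.17), HBEGF (2.72), EREG (1.70) and BTC (0.154), with no 2 neighbours overlapping in their library ranges. EGFR stood at the 94.9th percentile and AREG at the 94.5th percentile of the 19884 tested genes with a length, EREG at the 46.5th and BTC at the 11.7th. At 6 h the order began with ERRFI1 (37.6 CPM per kilobase), followed by TGFA (17.6), AREG (16.5), EGFR (15.1) and EREG (13.8), and these last 4 overlapped as neighbours. At 12 h EGFR (30.1) and ERRFI1 (26.8) led, followed by AREG (14.8), TGFA (14.5) and EREG (10.7), and each of these 5 overlapped its neighbours. At 24 h the 4 highest means were those of ERRFI1 (24.5), EREG (21.4), EGFR (19.3) and AREG (19.2), each overlapping the next. ERBB3 and BTC were in the lower part of the order at all times, and BTC was last at each. This order depends on the length used. With the length of the canonical transcript, ERBB3 (8.71, range 8.65 to 8.80) lay above TGFA (8.06, range 7.30 to 8.85) in normoxia, and they overlapped. At 6 h EGFR (24.3) then lay above AREG (22.0) and TGFA (21.1).

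The 24 h libraries were compared next, because they differ and decide some of the calls. Between 12 and 24 h 5 of the 9 genes were called, against 28.4% of all tested genes (15.1% higher and 13.3% lower), and the library ranges of 5 of 9 did not overlap, against 49.2% of all genes. EGFR (log2 fold change -0.64 ± 0.21), ERBB2 (-0.47 ± 0.16) and TGFA (-0.79 ± 0.24) were lower at 24 h than at 12 h, and ERBB3 (0.53 ± 0.19) and HBEGF (1.24 ± 0.34) were higher. With 1 library of the 11 left out, the number called fell to between 0 and 4, and each of the 5 calls was lost in at least 3 of these 11 fits. In 24 h replicate 1 alone EREG, HBEGF and ERRFI1 were further above normoxia than in replicate 2 alone, by log2 fold changes of 4.35 against 2.09, 1.63 against -0.021, and 2.07 against 0.82. ERBB3 and AREG were nearer to normoxia in replicate 2 alone, and EGFR and ERBB2 were further below it. For ERBB3 and AREG this contrast depends on the scaling, since with library size alone replicates 1 and 2 had 23.8 and 25.8 CPM of ERBB3 and 21.2 and 20.6 CPM of AREG. These differences between the 2 libraries were not tested.

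**Figure D4:**
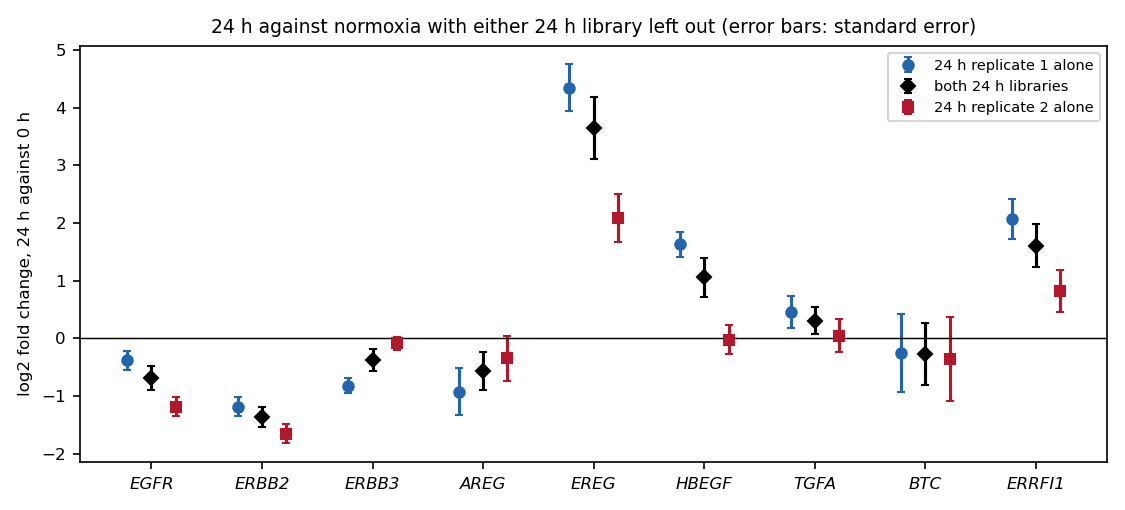
Log2 fold change of each gene at 24 h against normoxia (vertical axis) with both 24 h libraries (diamonds), replicate 1 alone (circles) or replicate 2 alone (squares), with standard errors from edgeR as bars. EREG and ERBB2 keep their direction and call with either library, whereas HBEGF is at 1.63 with replicate 1 and at -0.021 with replicate 2.

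Scaling bears on the direction of weak changes. With library size alone in place of TMM, the median over all tested genes moved from -0.0021 to -0.32 at 6 h, from -0.0326 to -0.499 at 12 h and from -0.0649 to -0.971 at 24 h. The split of calls over all genes moved from 5018 higher and 5534 lower to 2713 and 7130 at 6 h, from 4827 and 5409 to 2116 and 8444 at 12 h, and from 5974 and 6261 to 2222 and 11305 at 24 h. Under it ERBB2 and ERBB3 stayed lower and EREG and ERRFI1 stayed higher at every time. ERRFI1 was no longer called at 24 h (log2 fold change 0.81, adjusted p = 0.124). EGFR stayed lower at 6 and 24 h, and at 12 h it went from -0.053 to -0.52, called in neither fit. TGFA was no longer called at 12 h (0.62, adjusted p = 0.0721) and turned to -0.57 at 24 h. Calls were gained at 24 h for ERBB3 (-1.37, adjusted p = 2.08e-05) and AREG (-1.54, adjusted p = 0.00146), and EGFR went from -0.69 to -1.53 there.

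Of the 7 other genes of the family, 3 were too low to test. ERBB4, the fourth receptor, had 0 or 1 count, EGF itself 0 to 7 counts, and NRG3 0 counts in every library, which allows up to 3 counts or between 0.0567 and 0.163 CPM per library (counting error only). NRG1, a neuregulin that binds ERBB3, had 1.78, 1.89 and 1.78 CPM in normoxia and 26.5, 26.6 and 16.1 CPM at 6 h, 18.4, 21.3 and 19.4 CPM at 12 h, and 22.1 and 11 CPM at 24 h. Its rise was 12.7-fold, 10.8-fold and 9.11-fold (log2 fold changes 3.66 ± 0.28, 3.44 ± 0.28 and 3.19 ± 0.29, adjusted p = 1.3e-06, 3.0e-06 and 3.4e-06), while the receptor ERBB3 fell at 6 and 12 h. EPGN fell from 3.37 to 4.47 CPM in normoxia to 1.11 to 2.15 CPM in hypoxia (adjusted p = 0.00211, 0.00143 and 0.00183). NRG4, a ligand of ERBB4, was not called at 6 h (log2 fold change -0.31, adjusted p = 0.227), was higher at 12 h (0.71, adjusted p = 0.0105) and was higher at 24 h (1.82, adjusted p = 2.1e-05). With library size alone it was not called at 12 h (0.24, adjusted p = 0.46), nor when 0 h replicate 3 or 12 h replicate 2 was left out. NRG2 had 1 to 4 counts in normoxia, 2 to 5 at 6 h, 11 to 14 at 12 h and 7 or 8 at 24 h, and was called higher at 12 and 24 h (adjusted p = 0.000964 and 0.00212).

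Around these genes, 67 further genes of the pathway were listed by function, the 7 family genes above included, and 64 were tested. Of the 64, 37 were called at 6 h (25 higher and 12 lower), 35 at 12 h (23 and 12) and 33 at 24 h (17 and 16), or 57.8%, 54.7% and 51.6%, against 52.8%, 51.2% and 61.2% of all genes. With library size alone the split was 19 higher and 14 lower at 6 h, 13 and 21 at 12 h, and 9 and 40 at 24 h. The list of shedding genes holds genes that act in releasing ligands from their precursors and, in TIMP3, an inhibitor of this. This list had 1 of 6 higher and 3 of 6 lower at each time, or 66.7% called. Its counts and median therefore give no direction of ligand release. Lower at all 3 times were the inactive rhomboids RHBDF1 (log2 fold changes -1.63, -1.25 and -1.01) and RHBDF2 (-1.21, -1.07 and -1.69), which bring the protease ADAM17 to the surface, and the metalloprotease inhibitor TIMP3 (-0.95, -1.15 and -1.01). Higher at all 3 times was FRMD8, which binds the rhomboids (2.22, 1.60 and 0.76), although it was at -0.22 at 24 h with library size alone. The median of this list was -0.33, -0.50 and -0.80 against -0.0021, -0.0326 and -0.0649 over all genes.

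Of 16 genes of receptor downregulation and feedback, 5 were higher and 3 lower at 6 h and at 12 h, and 2 were higher and 2 lower at 24 h, or 50%, 50% and 25% called against the 52.8%, 51.2% and 61.2% of all genes. Only SPRY1 of this list, a feedback inhibitor of RAS-ERK signalling, was called in 1 direction at all 3 times (log2 fold changes 1.70, 2.16 and 1.65). Of 25 adaptors and kinases, 9 were higher and 4 lower at 6 h, 5 and 4 at 12 h, and 3 and 9 at 24 h, or 52%, 36% and 48% called. MAP2K1, the kinase MEK1 upstream of ERK, was higher at all 3 times (1.89, 1.79 and 1.82). Lower at all 3 times were 4 genes, of which the catalytic PI3K subunit PIK3CB (-0.85, -0.56 and -1.07) and the RAS exchange factor SOS2 (-0.75, -0.69 and -0.79) had the lowest means and the kinase AKT1 (-0.34, -0.51 and -0.70) the highest. The AKT1 call at 6 h was lost in 5 of the 11 fits that leave out a library. The SOS2 calls were lost without 12 h replicate 3 at 12 h and without 24 h replicate 2 at 24 h.

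Of 13 genes known as transcriptional outputs of ERK signalling, 9 were higher and 1 lower at 6 h and at 12 h, and 8 were higher and 1 lower at 24 h, or 76.9%, 76.9% and 69.2% called against 52.8%, 51.2% and 61.2% of all tested genes. The median log2 fold change of the list was 1.55, 1.21 and 0.90, against -0.0021, -0.0326 and -0.0649 over all tested genes. FOSL1, which encodes the AP-1 subunit FRA1, had log2 fold changes of 4.11, 3.74 and 2.23, and IER3, an immediate early gene, had 1.21, 2.30 and 3.24. The only gene of the list called lower was EGR1, a zinc finger immediate early gene (-1.07, -0.88 and -2.23), and its 12 h call was lost in 5 of the 11 fits that leave out a library. ETV4, called higher at all 3 times, had the lowest mean among the higher ones (0.88, 0.98 and 0.90). These outputs also respond to signals other than this family, and ERK activity was not measured. The list was chosen with earlier results of these data known, so its shares and medians are a description only. Both were taken with TMM scaling only. With library size alone, the median over all tested genes at 24 h was -0.971. Of the 64 tested pathway genes, this list included, 9 were then called higher and 40 lower at 24 h.

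**Figure D5:**
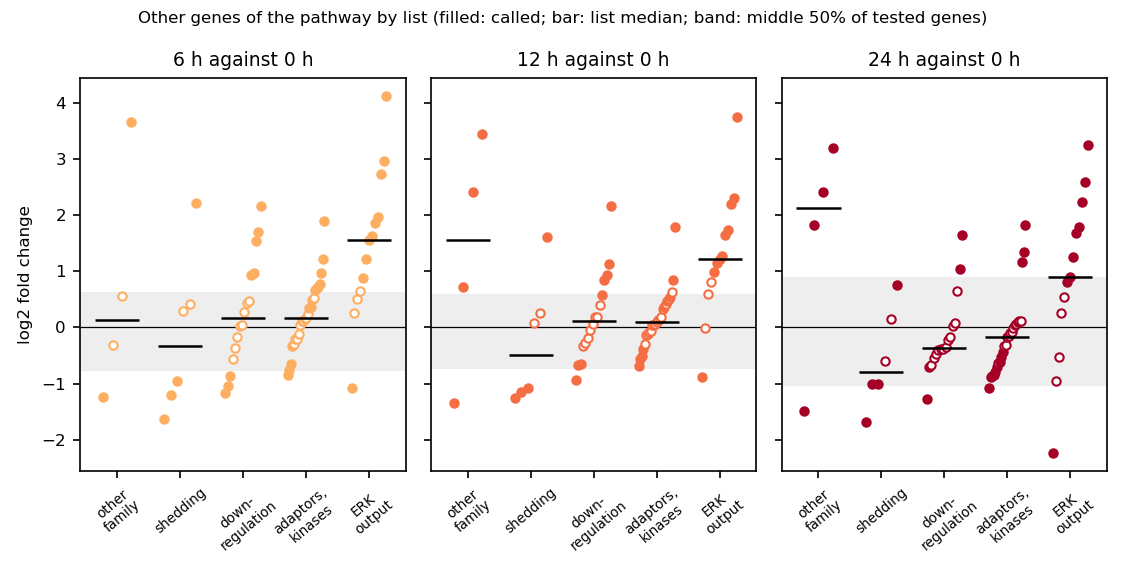
Log2 fold change (vertical axis) of the tested genes of 5 pathway lists at 6, 12 and 24 h against normoxia. Each point is a gene, filled where called, the black bar is the median of the list and the grey band holds the middle 50% of all tested genes. With TMM scaling, the ERK output list has its median above 0 at all 3 times, at 1.55, 1.21 and 0.90.

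For each of the 9 genes, the 2 tested genes with the most similar pattern were found as those with the smallest root mean square difference, over 11 libraries, between log2 CPM values taken relative to the normoxic mean. For EGFR these were GATA3 (0.17) and NIPAL4 (0.20), for ERBB2 PAIP2B (0.09) and RCBTB1 (0.12), and for ERBB3 PMS2P7 (0.08) and DENND10 (0.12). For AREG they were EPSTI1 (0.18) and HDAC11 (0.22), for HBEGF SEPTIN7P3 (0.22) and MKLN1-AS (0.28), and for BTC NUP153-AS1 and CDNF (both 0.30). For TGFA they were DUSP4 (0.22) and TOP1 (0.23), and for ERRFI1 HAS3 and DUSP5 (both 0.27). DUSP4 and DUSP5, phosphatases of the MAP kinases, are 2 of the 13 genes of the ERK output list. For EREG the nearest were SELPLG (0.38) and RORA (0.41). The median difference over all tested genes was between 0.93 (for EGFR) and 2.58 (for EREG).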

How the data were processed

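RNA of 11 RWPE1 libraries was measured. The authors trimmed the reads with Trimmomatic, aligned them with STAR to GRCh38 (hg38) and made gene counts with featureCounts. The deposited table holds these raw counts, with 0 columns left without a sample. Handling of strand and of reads with several matches is not given in the sources used here. DESeq2 is named in the submitters' processing notes.

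Positions and exonic lengths came from GENCODE release 44, and promoter windows from RefSeq (GRCh38.p14). filterByExpr (minimum count 10, minimum total 15) kept 19981 genes. Counts were scaled with TMM and tested with edgeR's quasi-likelihood test in 1 fit of all 11 libraries, time point the only factor, with Benjamini-Hochberg adjustment over the 19981 genes. This test replaced the limma-voom fit of the study because the values are counts. Standard errors were derived from the F statistic. Log2 CPM used a prior count of 2. The biological coefficient of variation was 19.6%. The fit was tested on simulated data in which few genes changed, by the same known folds at each time of hypoxia. That test did not probe the scaling between libraries or the spread between the 24 h libraries.

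The genes, pathway lists and marker lists were chosen with earlier results of these data known. The genes named are the 9 members, the 2 most similar genes of each, the other family genes and, of each other pathway list, the 2 highest and 2 lowest means among genes called in 1 direction at all 3 times. Genes named outside this rule are said to be so. 2 marker genes are not reported here. Alternatives were limma-voom, DESeq2, median-of-ratios scaling, library size alone, no filter, at least 10 counts in every library, only the 2 groups compared, a replicate block, and each library left out in turn. The length of the canonical transcript was added after seeing the data. Counting depth limits the precision of BTC and NRG2 most. Software used was edgeR 4.0.16, DESeq2 1.42.0 and limma 3.58.1 in R 4.3.3, and matplotlib 3.10.9, pandas 2.3.3 and numpy 2.4.6 in Python 3.11.15.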

Additional observations from a re-analysis of the deposited data

Results flagged for a closer look

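Differences between 2 times of hypoxia passed edgeR's test for 5 of the 9 genes. EGFR was higher at 12 h than at 6 h (log2 fold change 1.00 ± 0.19, adjusted p = 0.0162). At 24 h against 12 h EGFR (-0.64 ± 0.21, adjusted p = 0.0416), ERBB2 (-0.47 ± 0.16, adjusted p = 0.0493) and TGFA (-0.79 ± 0.24, adjusted p = 0.0289) were lower, and ERBB3 (0.53 ± 0.19, adjusted p = 0.0491) and HBEGF (1.24 ± 0.34, adjusted p = 0.0191) were higher. These comparisons test directly whether the levels at 2 times of hypoxia differ. Without normoxic libraries at these times, longer hypoxia and longer culture cannot be told apart. For HBEGF 24 h replicate 2 (8.34 CPM) lay inside the range at 12 h (6.08 to 8.79 CPM), and without 24 h replicate 1 the difference was 0.19. These calls near the threshold were unstable when 1 of the 11 libraries was left out. At 24 h against 12 h the call of ERBB3 was lost in 10 of the 11 fits (0.08 to 0.84), that of ERBB2 in 9 (-0.74 to -0.28), that of EGFR in 7 (-1.10 to -0.32), and those of TGFA (-1.02 to -0.63) and HBEGF (0.19 to 1.82) in 3 each. The call of EGFR at 12 h against 6 h was lost in 4 of them.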

How the results depend on the processing

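In the comparisons with 0 h, 478 of 510 alternative values for the 9 genes kept their direction and their side of the threshold, 18 lost the call, 10 gained it and 4 changed sign. Between times of hypoxia 276 of 338 did so, 50 lost the call, 3 gained it and 9 changed sign. At 24 h against 0 h the number called went from 5 to 3 in a fit of the 2 groups alone and was 3 to 5 with a library left out. At 12 h against 6 h it went from 1 to 0 with library size alone (1 gene at an unadjusted p under 0.05, and 1 called by limma-voom and by DESeq2) and was 0 to 1 with a library left out. At 24 h against 12 h it went from 5 to 3 with library size alone, to 0 in a fit of the 2 groups alone (2 of 8 genes at an unadjusted p under 0.05, against 4 called by limma-voom and 5 by DESeq2), and was 0 to 4 with a library left out. The fit of the 2 groups alone called 0 of all 17807 genes there, so its counts of 0 are not particular to these genes. Of all genes 5668 were called there in full, 5458 with library size alone and 3068 without 12 h replicate 2. At 12 h against 6 h 989 of all genes were called in full, 690 with library size alone and 61 without 12 h replicate 3. The count of called pathway genes was 31 to 50 with a library left out at 24 h against 0 h (33 in full, 50 without 24 h replicate 1), and 1 to 24 at 12 h against 6 h (9 in full). DESeq2 called 14 there. At 24 h against 12 h it was 12 to 40 with a library left out (22 in full) and 0 in a fit of the 2 groups alone (21 of 64 at an unadjusted p under 0.05, against 22 by limma-voom and 26 by DESeq2). With library size alone the sign changed for TGFA at 24 h against 0 h (-0.57), ERBB3 at 12 h against 6 h (-0.032) and at 24 h against 12 h (-0.0011), and AREG at 24 h against 12 h (-0.12). With a library left out, values changed sign within the ranges -0.15 to 0.030 for EGFR at 12 h against 0 h, -0.021 to 1.63 for HBEGF and -0.46 to 0.066 for BTC at 24 h against 0 h, -0.11 to 0.055 for ERBB2 and -0.49 to 0.18 for AREG at 12 h against 6 h, and -0.53 to 1.71 for EREG and -0.89 to 0.34 for ERRFI1 at 24 h against 12 h. Of 15 same-numbered pairs of libraries, 2 had a correlation of deviations from the group means over 0.1 (range -0.156 to 0.207). These deviations sum to 0 within each group of 2 or 3 libraries. The correlations therefore cannot decide whether the replicate numbers pair the libraries. A fit with the replicate number as a block called 2 genes in place of 5 at 24 h against 12 h. Of all genes it called 4463 there in place of 5668. Where a library left out leaves 1 at 24 h, that library is assumed to vary like those of the other groups. The causes of these changes were not tested, and depth limits BTC and NRG2, with under 25 counts per library.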

Other observations

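Some further genes of the pathway lists, chosen after their values were seen, changed at part of the times. CBL, the ubiquitin ligase that directs EGFR to lysosomes, was higher at 6 h (log2 fold change 1.53 ± 0.23, adjusted p = 0.000135) and 12 h (0.93 ± 0.22, adjusted p = 0.00416) and was at -0.55 ± 0.25 at 24 h (adjusted p = 0.0746). LRIG1, a membrane protein that lowers receptor levels, was at -0.36 at 6 h (adjusted p = 0.109) and was lower at 12 h (-0.93 ± 0.19, adjusted p = 0.00139) and 24 h (-1.27 ± 0.23, adjusted p = 0.000432). FOS, an immediate early gene of the AP-1 family, was called at 24 h (2.59 ± 0.46, adjusted p = 0.000385) and not at 6 h (0.25) or 12 h (0.80). CCND1, which encodes the cell cycle regulator cyclin D1, was higher at 6 h (1.55 ± 0.15, adjusted p = 7.2e-06) and 12 h (1.27 ± 0.15, adjusted p = 3.9e-05) and was at 0.25 at 24 h (adjusted p = 0.208). ADAM17 and ADAM10, the proteases that cut the ligand precursors, were the only genes of the shedding list not called against 0 h at any of the 3 times. Their log2 fold changes were -0.59 to 0.41 and 0.071 to 0.29. ADAM17 was, however, lower at 24 h than at 12 h (-0.85 ± 0.28, adjusted p = 0.0399). In that comparison 3 of the 6 genes of the list were called, all lower, against 28.4% of all tested genes called.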
